A study of Drosophila melanogaster with 4 samples.

Results

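The domains described here are the short H3K9me1 domains at the centromere-facing ends of the assembled sequences of 4 chromosome arms of Drosophila melanogaster. Distances are counted from those ends and not from the centromere itself. H3K9me1 is histone H3 carrying a single methyl group on lysine 9, and a domain is a stretch of the genome that the authors listed as enriched for it. Members were taken from the authors' combined list as enriched regions shorter than 10 kb whose midpoint falls in the last 2 Mb of 2L (from position 21011545), 3L (from 22543558) or X (from 20422828), or in the first 2 Mb of 3R (1 to 2000000). These ends of the release 5 sequences are the ones that face the centromere. The rule found 647 members among 13702 domains of the combined list, 233 on 3R, 190 on X, 165 on 2L and 59 on 3L. The members were selected on the calls, lengths and positions of the combined list, so these numbers describe the choice and are not tested.

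The series profiled nuclei of wild-type Oregon-R larvae of the third instar by chromatin immunoprecipitation and sequencing (ChIP-seq), with lot 2 of an antibody against H3K9me1. It holds 2 ChIP samples and 2 input samples of the same strain and stage, the inputs being chromatin that was sheared but not precipitated. Each ChIP sample had the input of the same number as its background, and nothing states that the replicates are separate collections of larvae. Their spread may be partly technical. All samples are of a single stage, and since the labels name no tissue, tissues cannot be told apart.

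Methylation of H3 lysine 9 is the hallmark of heterochromatin. The di- and tri-methylated forms, set by enzymes such as Su(var)3-9, are bound by Heterochromatin Protein 1 and fill the repeat-rich sequence around the centromeres, where genes placed by rearrangement are silenced in some cells and not in others (position-effect variegation). Mono-methylation is the first step towards these forms and also occurs on its own outside heterochromatin. In release 5 of the fly genome the assembled arms reach from euchromatin into the pericentric heterochromatin by differing lengths, while most of the heterochromatin lies outside these arm sequences.

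In the same stretches and under the same length limit, the list of replicate 1 held 298 domains and that of replicate 2 held 644. These were 3.59% of the 8304 domains of replicate 1 and 5.45% of the 11820 of replicate 2. The members were 4.72% of the combined list. The sources used here give no read depth. The values therefore carry no counting error, and the SDs are over the 2 replicate lists. Domains of a list share a library, and the combined list rests on the same ChIP samples as the replicate lists. No test over domains or bins was therefore made, and differences are set beside the spread between replicates. A base outside a domain is a base that was not called. The share of each stretch to which reads can be placed was not analysed here.

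Coverage, the share of bases inside enriched domains of any length, was lower in the proximal 2 Mb than in the rest of the arm on 3L, X and 2L and higher on 3R, in the lists of both replicates. On 3L the proximal value was 7.09% ± 2.52, against 33.4% ± 4.39 for the rest (SD, n = 2). On X it was 16.6% ± 13.1 against 35.4% ± 8.70, and on 2L 14.6% ± 4.48 against 27.7% ± 2.86 (SD, n = 2). On 3R the proximal value was 37.1% ± 3.51, against 29.1% ± 2.91 for the rest (SD, n = 2). The difference, proximal minus rest, was -31.2 percentage points in replicate 1 and -21.4 in replicate 2 on 3L, -22.0 and -15.8 on X, and -18.2 and -7.84 on 2L. On 3R it was 3.52 points in replicate 1 and 12.6 in replicate 2. The sign was thus the same in both replicates on each arm, while the size on 3R and 2L varied more than 2 times between them.

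**Figure D1:**
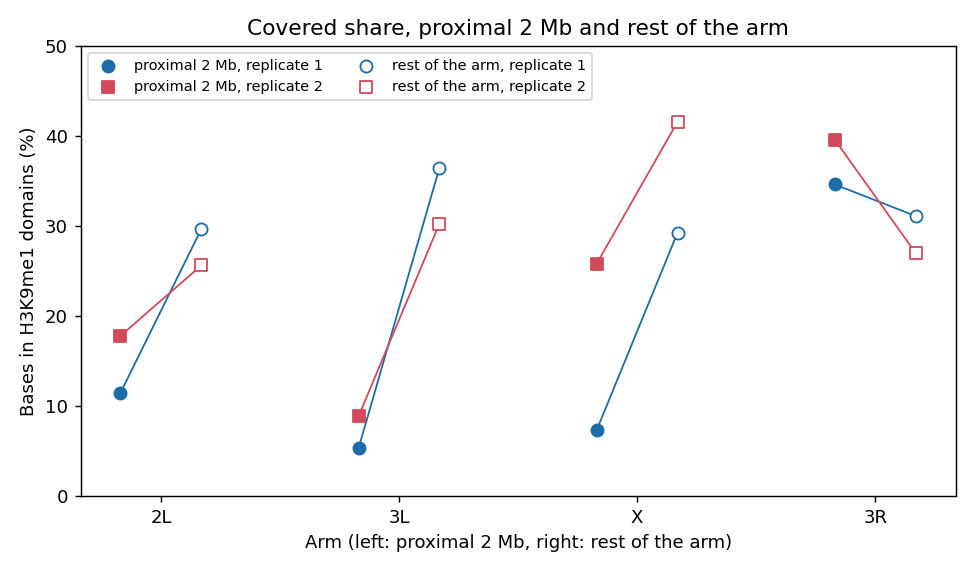
Share of bases inside H3K9me1 domains (%) in the proximal 2 Mb (filled, left) and in the rest of the arm (open, right), by arm; circles are replicate 1 and squares replicate 2, each pair joined by a line. On 2L, 3L and X both lines climb to the right, and on 3R both descend, with 34.6% proximally against 31.1% elsewhere in replicate 1, and 39.6% against 27.0% in replicate 2.

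Set beside the other 2 Mb windows of the same arm, counted from the proximal end, the proximal window of 3L was the least covered of 12 in both replicates, at 5.31% and 8.87% against 26.7% and 15.5% in the next lowest. The proximal window of X was the least covered of 11 in both, at 7.33% and 25.8% against 21.8% and 33.2% in the next lowest. On 2L it ranked lowest of 11 in replicate 1 (11.5%) and 3 from the lowest in replicate 2 (17.8%). On 3R the proximal window ranked 9 from the lowest of 13 in replicate 1 (34.6%) and highest of 13 in replicate 2 (39.6%). The next window of 3R, from 2 to 4 Mb, was the least covered of that arm in both, at 18.7% and 18.3%, so on 3R a well covered window stood beside a sparse one.

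Replicate 2 covered more of the proximal 2 Mb than replicate 1 on all 4 arms. It covered 3.52 times as much on X, 1.67 times on 3L, 1.55 times on 2L and 1.14 times on 3R. In the rest of the arm the same ratio was 1.42 on X, 0.830 on 3L, 0.864 on 2L and 0.868 on 3R, so that outside X replicate 2 covered more in the proximal window and less elsewhere. The part of this difference in the results was not tested, and coverage is given below for each replicate.

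**Figure D2:**
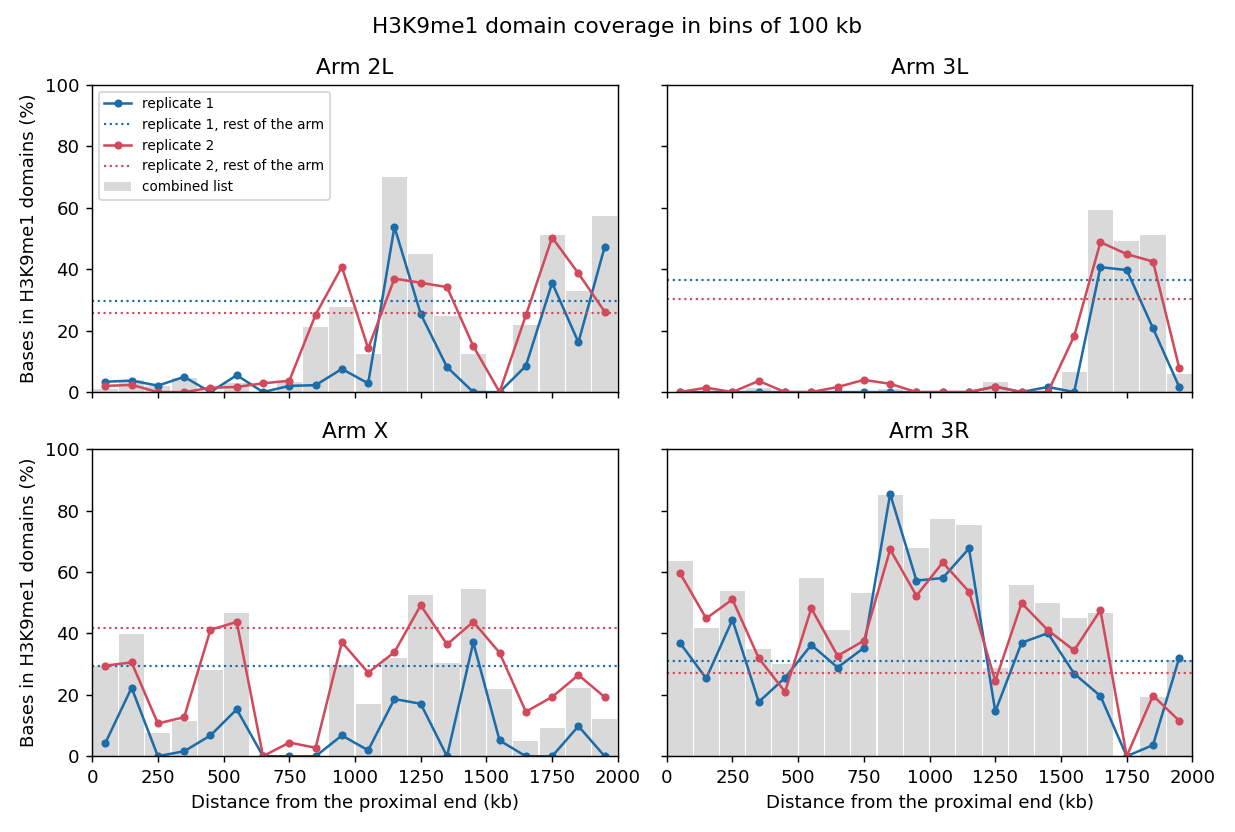
Share of bases inside H3K9me1 domains (%) in bins of 100 kb against distance from the proximal end (kb), by arm; lines with points are the replicates, grey bars the combined list and dotted lines each replicate's coverage of the rest of the arm. 3L stays near 0 up to 1500 kb, 2L up to 800 kb, X has a break from 600 to 900 kb, and 3R is covered from the end itself.

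Along 3L the proximal end was almost free of domains and ended in a step. Over the first 1500 kb, replicate 1 covered 0.230% and replicate 2 covered 1.01%, and 4 members lay there. From 1600 to 1900 kb the coverage was 33.7% in replicate 1 and 45.4% in replicate 2, and 47 of the 59 members lay there. The borders between such parts, here and on the other arms, were set with the profiles in view. The bin from 1500 to 1600 kb stood at 0% in replicate 1 and 18.2% in replicate 2, so the replicates placed the step 1 bin apart, and the last bin, from 1900 kb, was back at 1.64% and 7.81%. Replicate 1 listed no domain within 1291 kb of the end, and replicate 2 none within 168 kb.

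The 4 members of 3L inside the empty part were all under 2 kb, the longest measuring 1932 bp. None overlapped domains of both replicates, 1 overlapped replicate 1 alone, 2 replicate 2 alone and 1 neither. Of the 1248 domains of 1 to 2 kb in the rest of 3L, 7.21% overlapped both, so an absence among 4 is close to that share. The nearest to the end, from 24224534 to 24225937, measured 1404 bp and scored 0.280. A domain of replicate 2 took in 97.8% of it, and none of replicate 1 did. The next, from 23664823 to 23665823, had the highest score of the 59 members, 1.31, although it was the shortest at 1001 bp, and no domain of either replicate overlapped it. The longest gap between combined domains of 3L, 558.7 kb from 23665824 to 24224533, separated the pair. Inside it, replicate 2 covered 1.64% of the bin from 600 to 700 kb and 3.98% of that from 700 to 800 kb. The longest gap free in all 3 lists measured 390.9 kb and lay 879 to 1270 kb from the end. Beyond the step, from 1600 to 1900 kb, the members were longer, with a median of 2277 bp against 1379.5 bp for the 4 within 1500 kb. The member with the second highest score, 1.15, ran from 22877254 to 22883641 (6.39 kb), 1660 kb from the end, with 99.5% of its length in replicate 1 and 97.1% in replicate 2. The longest member, from 22762250 to 22769096 (6.85 kb), had 90.4% and 80.6%. Between them lay the pair of domains of 10 kb or more in this stretch, 11.9 kb and 19.8 kb, with scores of 1.68 and 1.14.

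On 2L the sparse part was shorter and the profile beyond it was uneven. Within 800 kb of the end the replicates covered 2.71% and 1.75%, and 12 of the 165 members lay there. None of these 12 overlapped domains of both replicates, 9 overlapped replicate 1 alone, 2 replicate 2 alone and 1 neither. All 12 were under 2 kb, the longest measuring 1846 bp. Of the 1077 domains of 1 to 2 kb in the rest of 2L, 7.99% overlapped both. A further 32.8% overlapped replicate 1 alone and 33.2% replicate 2 alone. An absence from both is thus close to the share for that length. From 800 to 1500 kb coverage was 14.3% in replicate 1 and 28.8% in replicate 2, with 99 members. From 1600 to 2000 kb it was 26.9% and 35.0%, with 54 members. Between these lay a free bin, 1500 to 1600 kb, with 0% in all 3 lists. The bin of 1100 to 1200 kb was the most covered of replicate 1 (53.8%) and stood at 37.0% in replicate 2. The lists disagreed next to it: the bin of 900 to 1000 kb had 7.54% in replicate 1 and 40.8% in replicate 2.

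Members of 2L near the end were short here too. The nearest, from 22984157 to 22985157, measured 1001 bp, scored 0.524 and lay inside a replicate 2 domain. The second, from 22874191 to 22875916 (1.73 kb, score 0.121), lay inside a replicate 1 domain. A member of 1.85 kb at 22661723 to 22663568 scored 0.894, the second highest on the arm, and rested on a single replicate 1 domain with a score of 1.36 in that list, with no domain in replicate 2. The longest gap between combined domains of 2L, 199.7 kb from 22443877 to 22643572, lay in this sparse part. The top-scoring member of 2L, 1.19, ran from 21832383 to 21837457 (5.08 kb), 1174 kb from the end, and had 94.4% of its length in replicate 1 and 95.8% in replicate 2. The longest, from 21012124 to 21020637 (8.51 kb), ended at the far border and lay wholly inside a replicate 1 domain of 25680 bp, with no overlap in replicate 2.

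X was covered right up to its end, in patches, and much more so in replicate 2. The first 600 kb held 67 of the 190 members. Replicate 1 covered 8.37% of this part and replicate 2 covered 28.1%. From 600 to 900 kb there were no members, and coverage was 0% and 2.41%. In the combined list the gap ran for 349.2 kb, from 21500944 to 21850149. A stretch of 167.4 kb in this break, 573 to 741 kb from the end, was free of domains in all 3 lists. From 900 to 1600 kb coverage was 12.4% and 37.3%, with 98 members, and from 1600 to 2000 kb 2.45% and 19.9%, with 25. The longest gap of each replicate lay at the break, 366.0 kb in replicate 1 and 167.4 kb in replicate 2. Replicate 1 was sparse elsewhere on X too, with 8 of its 20 bins at 0%. Gaps of 50 kb or more made up 81.3% of the stretch in replicate 1, against 12.4% in replicate 2. The patches on either side of the break were 3.02 to 8.11 times as covered in replicate 2 as in replicate 1.

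The member of X nearest to the end, from 22420644 to 22422502 (1.86 kb, score 0.355), stopped 325 bp short of the end of the sequence. It and the next, from 22418870 to 22420116 (1.25 kb, score 0.450), lay wholly in replicate 2 domains and had no overlap in replicate 1. The highest score of the arm, 0.943, belonged to a member of 1.19 kb from 22374718 to 22375908, again listed in replicate 2 alone, where its domain scored 1.59, the highest of that list in this stretch. The longest member, from 22246965 to 22256021 (9.06 kb), 167 kb from the end, was found in both, with 100% of its length in replicate 1 and 87.1% in replicate 2. The second highest score, 0.924, belonged to a member of 8.03 kb from 21245425 to 21253454 with 75.6% and 71.2%.

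3R had no sparse end. In its first bin of 100 kb replicate 1 covered 37.0% and replicate 2 covered 59.7%, above the rest of the arm in both (31.1% and 27.0%), and the first domain of replicate 1 began 5 bp from the end. Over the first 800 kb the coverage was 31.3% and 40.9%, with 109 of the 233 members. It was highest from 800 to 1200 kb, at 67.1% and 59.1%, and 34 members lay there, beside 12 of the 20 domains of 10 kb or more of this stretch. From 1200 to 1700 kb it was 27.6% and 39.5%. The bin from 1700 to 1800 kb was empty in all 3 lists, inside a gap of 135.9 kb from 1687060 to 1822983 in the combined list, and from 1800 to 2000 kb coverage was 17.9% and 15.6%.

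The domain that starts 3R is not a member, since it runs from position 1 to 10536 and so passes the length limit. The nearest members followed it directly, from 11255 to 13226 (1.97 kb, score 0.278, inside a replicate 1 domain alone) and from 13752 to 15001 (1.25 kb, score 0.273, inside a replicate 2 domain alone). The highest scores of the arm belonged to long members held by both replicates. That of 1.15 ran from 291900 to 299751 (7.85 kb), with 100% of its length in replicate 1 and 93.1% in replicate 2, and that of 1.09 from 1442259 to 1451530 (9.27 kb), with 98.6% and 71.1%. The longest member, from 735824 to 745791, measured 9968 bp, just under the limit, and the shortest domain above the limit, from 547940 to 558232, measured 10293 bp.

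The direction along the stretch followed from these profiles. The outer Mb of the stretch, farther from the centromere, was more covered than the inner Mb by 18.1 ± 2.10 percentage points on 2L, 12.8 ± 3.14 on 3L and 6.18 ± 4.12 on X (SD, n = 2). On 3R outer minus inner was -9.74 ± 0.543 points (SD, n = 2), with -9.35 in replicate 1 and -10.1 in replicate 2. In replicate 1 this difference on 3R depended on the long domains: over domains under 10 kb outer minus inner was 0.291 points. In replicate 2 it was still -9.30 points over domains under 10 kb. The combined list gave -9.98 points over all domains and -0.775 over those under 10 kb. The inner Mb was covered to 5.57% ± 3.43 on 2L, 0.669% ± 0.946 on 3L, 13.5% ± 11.0 on X and 42.0% ± 3.79 on 3R (SD, n = 2). Across 20 bins of 100 kb, which are neighbours in a shared library, Spearman's rho of coverage with distance was 0.46 and 0.65 on 2L in replicates 1 and 2, 0.72 and 0.54 on 3L, -0.25 and -0.40 on 3R, and -0.098 and 0.093 on X. X therefore had no common direction, in spite of its lower inner Mb. The replicate 1 bins first reached the level of the rest of the arm at 1100 kb on 2L, 1600 kb on 3L and 1400 kb on X, and those of replicate 2 at 900 kb, 1600 kb and 500 kb. On 3R the first bin was already above it in both.

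Coverage is the product of how many domains there are and how long they are, and the arms differed in which of these was low. On 3L the number was low: there were 13 domains per Mb proximally against 77.6 elsewhere in replicate 1, and 33.5 against 101 in replicate 2, while the mean length was 0.871 and 0.884 times that of the rest. On 2L the length was low as well, with a number ratio of 0.618 and 0.884 and a mean length ratio of 0.600 and 0.786. On X the number ratio was 0.332 and 0.754 and the length ratio 0.754 and 0.824. On 3R the number ratio was 1.17 and 1.41, and the length ratio 0.950 and 1.04, so the number was above that of the rest in both replicates and the mean length in replicate 2 only.

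**Figure D3:**
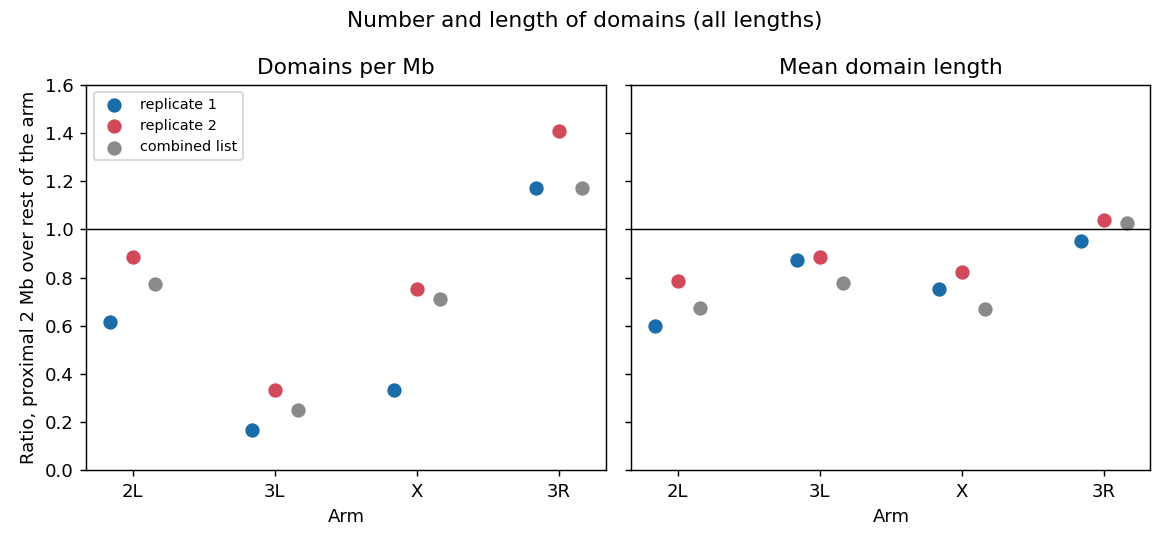
Ratio of the proximal 2 Mb over the rest of the arm for the number of domains per Mb (left) and the mean domain length (right), by arm and list, over domains of all lengths; the line marks 1. The number ratio runs from 0.167 on 3L in replicate 1 to 1.41 on 3R in replicate 2, and the length ratio from 0.600 on 2L to 1.04 on 3R.

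Domains of 10 kb or more, which the length limit sets aside, were listed mostly on 3R. The combined list held 25 of them in the stretches, 20 on 3R, 2 each on 3L and X and 1 on 2L. On 3R they measured 10.3 to 38.2 kb and made up 35.1% of the bases of the domains in the stretch, against 17.8% on 3L, 6.94% on X and 5.23% on 2L. Replicate 1 listed 14 such domains in the stretch of 3R and replicate 2 listed 7, and on the other 3 arms neither listed more than 2. On 2L, 3L and X no domain of 10 kb or more of the combined list or of replicate 1 lay nearer to the end than 1475 kb, while in replicate 2 the nearest on X lay at 517 kb. Set against the rest of each arm, the rate on 3R was 7 per Mb against 6.99 in replicate 1 and 3.5 against 2.35 in replicate 2. The combined list gave 10 per Mb against 6.87. On the other arms it was at most 1 per Mb in the stretch, against 2.00 to 7.72 per Mb in the rest, over the 3 lists. Domains under 10 kb alone covered 21.9% of the proximal 2 Mb of 3R by replicate 1 and 35.6% by replicate 2.

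Length and score of the members had no common course with distance over the arms. Their median length was 1995 bp on 3R, 2076 bp on 3L, 1807 bp on 2L and 1684.5 bp on X, against 1974, 2055.5, 1982 and 2036 bp in the other domains under 10 kb of the same arms. On X and 2L the median was below that of the rest in all 3 lists, and members minus rest was -320 and -356 bp in replicates 1 and 2 on X and -302 and -212.5 bp on 2L. On 2L the median length was 1411.5 bp for the 8 members within 500 kb of the end, 1507 bp for 28 from 500 to 1000 kb, 1807 bp for 75 from 1000 to 1500 kb and 2087.5 bp for 54 beyond. The replicate lists did not share this order: the same 4 classes had 1703.5, 2020, 1874.5 and 1940.5 bp in replicate 1. The replicate lists hold no domain shorter than 1301 bp, while the combined list reaches down to 1001 bp, so their medians are over unlike ranges of length. On 3R the 4 medians of the combined list were 2070, 1943, 1961 and 2028.5 bp. On 3L only 4 members lay within 1500 kb of the end, so no course with distance can be given there.

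Scores were compared only between domains of the same list, as the scale that the authors used is not stated. The values here are of the combined list unless a replicate is named. The median score of the members was 0.405 on 3L, 0.403 on X, 0.358 on 3R and 0.330 on 2L, against 0.364, 0.431, 0.360 and 0.366 in the other domains under 10 kb of the same arms. The differences ran from -0.036 on 2L to 0.041 on 3L and were small beside the spread of the members, whose middle 50% ran from 0.238 to 0.405 on 2L and from 0.322 to 0.493 on 3L. On 2L and X the difference was negative in all 3 lists. Replicates 1 and 2 gave -0.071 and -0.040 on 2L, and -0.054 and -0.020 on X. On 3L the sign turned in the list of replicate 2, at -0.042, and on 3R it did so too, at 0.0096. Over the members of an arm, Spearman's rho of score with distance lay between -0.16 on X (190 members) and 0.15 on 3L (59 members), and that of length with distance between -0.10 on X and 0.20 on 2L (165 members). In the replicate lists the rho of length with distance spread wider and did not always have one sign. On 3L it was -0.11 over 24 domains of replicate 1 and 0.36 over 65 of replicate 2, on X -0.15 and -0.24, on 2L 0.13 and 0.12, and on 3R 0.086 and -0.16. Score followed length instead, with a rho of 0.44 on X, 0.49 on 2L, 0.66 on 3L and 0.68 on 3R, as a description of regions that share a library.

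**Figure D4:**
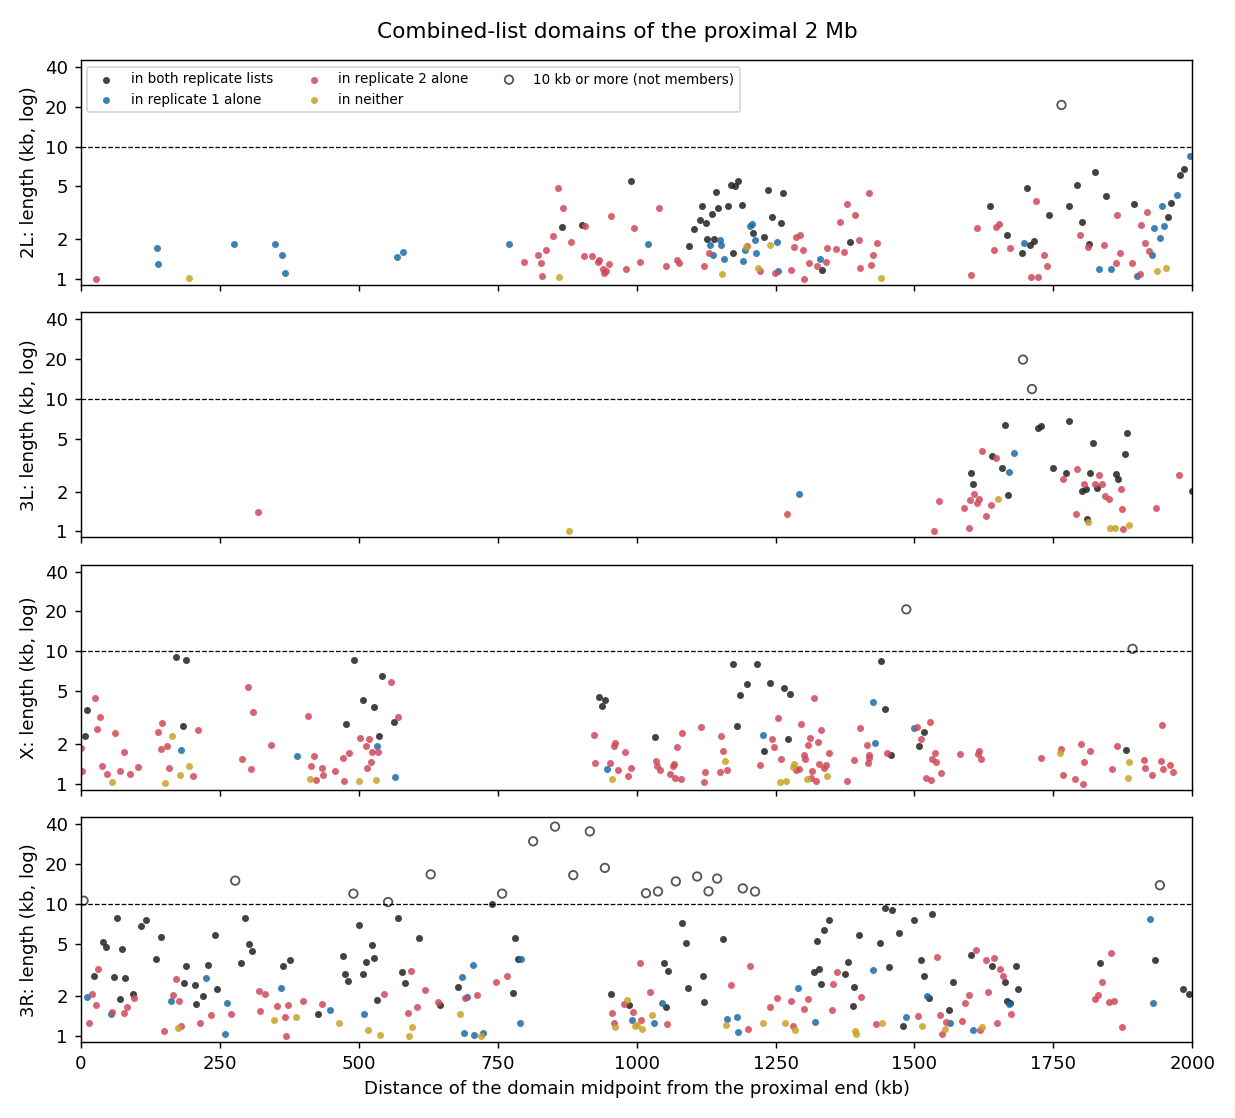
Length of each combined domain (kb, log axis) against the distance of its midpoint from the proximal end (kb), by arm; colours give the replicate lists that overlap a member by 1 bp or more, open circles are domains of 10 kb or more and the dashed line is the 10 kb limit. Members found in both replicates (black) are absent from the first 800 kb of 2L and the first 1500 kb of 3L. These parts hold 12 and 4 members, all under 2 kb, a length at which 7.99% and 7.21% were found in both in the rest of 2L and 3L. In the first 600 kb of X 12 of 67 members were found in both, and in the first 800 kb of 3R 47 of 109. Of the other domains under 10 kb of these arms, 34.6% on X and 32.9% on 3R were found in both. These last counts and shares are not matched for length.

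How far the members rest on both replicates differed between the arms. Of all 12859 combined domains under 10 kb, 33.9% overlapped domains of both replicates by 1 bp or more, 22.5% replicate 1 alone, 30.6% replicate 2 alone and 13.1% neither. Outside the stretches of the 4 arms the shares of 9916 such domains were 34.2%, 22.7%, 29.8% and 13.3%. Of the 647 members, 192 (29.7%) overlapped both, 80 (12.4%) replicate 1 alone, 315 (48.7%) replicate 2 alone and 60 (9.27%) neither. Replicate 2 alone thus held a larger share of the members than of the other domains. The lists share samples, so these shares describe how the combined calls are backed and test nothing.

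By arm, both replicates held 93 of 233 members on 3R (39.9%, exact 95% binomial interval 33.6% to 46.5%), against 32.9% of the other domains under 10 kb of that arm. On 3L they held 22 of 59 (37.3%, 25.0% to 50.9%), against 35.4%, and on 2L 45 of 165 (27.3%, 20.6% to 34.7%), against 34.0%. On X they held 32 of 190 (16.8%, 11.8% to 22.9%), against 34.6%. The intervals cover counting error only, and neighbouring domains are not independent. A further 130 members of X (68.4%) overlapped replicate 2 alone, against 42.5% in the rest of X. On 3L and 2L, 28 of 59 (47.5%) and 76 of 165 (46.1%) did so, against 24.5% and 25.6%, and on 3R 81 of 233 (34.8%), against 25.8%. On each arm, then, replicate 2 alone held a larger share of the members than of the rest.

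**Figure D5:**
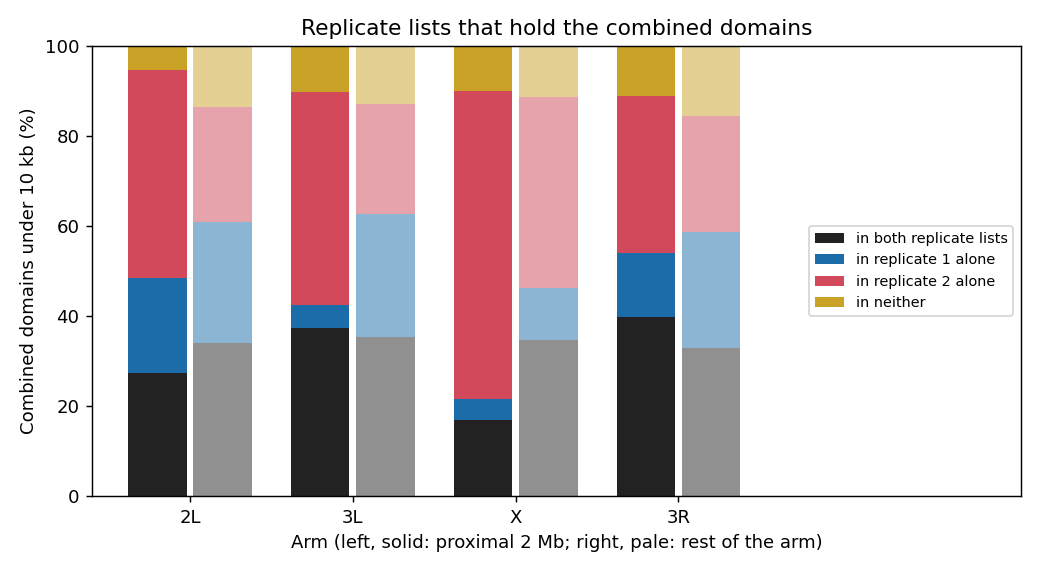
Combined domains under 10 kb (%) by the replicate lists that overlap them by 1 bp or more, for the members in the proximal 2 Mb (left, solid) and the rest of the arm (right, pale), by arm. The share found in both (bottom) is 16.8% of the members of X against 34.6% in the rest of X, and 39.9% against 32.9% on 3R.

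The share found in both was higher in longer domains, among the members and in the rest. Members of 1 to 2 kb were found in both in 7.86% of 369 cases, against 7.08% of 4941 in the rest of the 4 arms. The shortest domain measured 1301 bp in each replicate list and 1001 bp in the combined list. The shortest combined domains, among the members and in the rest, therefore had no replicate domain of their own size. The part of this in the low share was not tested. From 2 to 4 kb the shares were 48.7% of 199 against 48.4% of 3075, and from 4 to 10 kb 83.5% of 79 against 81.9% of 1900. In each class the members of all 4 arms together lay within 2 percentage points of the rest, but 3R and X lay on opposite sides. On 3R the members were above the rest in each class, with 12.8% against 6.75%, 56.8% against 48.7% and 91.4% against 80.5%. On X they were below it in each, with 3.17% against 6.55%, 29.5% (13 of 44) against 46.5% and 75% (15 of 20) against 83.0%. The most distant pair on X was that of 2 to 4 kb. In that class, 27 of the 44 (61.4%) overlapped replicate 2 alone, against 41.6%.

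The replicates were also compared base by base. In the proximal 2 Mb of 3R they shared 492 kb, which was 71.1% of the bases of replicate 1 and 62.1% of those of replicate 2, against 56.2% and 64.8% in the rest of the arm. On 3L they shared 82.6 kb, 77.7% and 46.5%, against 55.0% and 66.3%. On 2L they shared 112 kb, 48.8% and 31.4%, against 52.9% and 61.3%, and on X 101 kb, 69.0% and 19.6%, against 68.7% and 48.3%. The inner Mb of 2L stood lowest of the parts where both replicates listed domains, with 8.73 kb in common, 27.7% and 10.9%. All of the shared bases of 3L lay in its outer Mb, as replicate 1 listed no domain in the inner one.

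Over domains of all lengths, 3R stood apart from the other arms in both replicates. Its coverage was above that of the rest of the arm, its inner Mb was more covered than its outer Mb, and its domains were more numerous per Mb than in the rest. It held most of the long domains of the stretches, 14 of 18 in replicate 1 and 7 of 11 in replicate 2. The other stretches held at most 1 of them per Mb, against 2.00 to 7.72 in the rest of their arms. On 3R the rate was level with the rest of the arm in replicate 1 (7 per Mb against 6.99) and above it in replicate 2 (3.5 against 2.35). Over domains under 10 kb the coverage and the number stayed above the rest in both replicates, by 3.57 and 11.8 points and with number ratios of 1.19 and 1.41, while the inner Mb was the more covered in replicate 2 only. The difference between the arms was not tested. The contrast on 3R depended on the extent: as a mean of the replicates, proximal minus rest was 12.8 points with 1 Mb and 1.11 points with 3 Mb. The longer extent takes in part of the sparse window beyond. At the 2 Mb borders the last members inside lay 1.97 to 2.00 Mb from the end, with scores of 0.394 to 0.455, and the first domains outside lay at 2.01 to 2.03 Mb, with scores of 0.211 to 0.560.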

How the data were processed

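The authors deposited region lists and not reads: 1 list per ChIP replicate and 1 combined list, with the start, end and score of each region. Positions refer to FlyBase release 5, per the file headers. The aligner Bowtie 0.12.7 is named in the submitters' processing notes. Not given in the sources used here are the region caller, its thresholds, read depth, the way the combined list was made and the scale of the score that the authors deposited. Replicate 1 listed fewer domains than replicate 2, 8304 against 11820. Its mean domain length in the rest of the arm was greater on each arm, at 3968 to 4700 bp against 3000 to 3231 bp. The part of read depth in the number and length of the listed domains was not tested. Regions listed as depleted were kept apart. Coverage was counted base by base from all enriched domains, in bins of 100 kb and over whole stretches, and overlaps at 1 bp or more. Scripts were tested on simulated lists and ran under Python 3.11.15 with numpy 2.4.6, pandas 2.3.3 and scipy 1.17.1. Members and lists were chosen with earlier results of these data known. Per arm, the rule for named regions took the 2 members nearest the end, the longest, the 2 with the highest score and the longest gap. Alternatives covered the list, the replicates, length and score limits, merging, the extent, the overlap, the placement and the bin width. The genome and annotation of release 5 were not used here, so no gene or sequence is given, and the proximal end of 2R was not analysed here.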

Additional observations from a re-analysis of the deposited data

Results flagged for a closer look

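The sign of the proximal difference set 3R apart from the other arms. Proximal minus rest was 8.05 percentage points on 3R, against -13.0 on 2L, -26.3 on 3L and -18.9 on X, as means of the 2 replicate lists, with both replicates of an arm on the same side of 0. Outer minus inner Mb was -9.74 points on 3R, against 18.1 on 2L, 12.8 on 3L and 6.18 on X, again with both replicates on the same side, although over domains under 10 kb replicate 1 gave 0.291 on 3R. The difference between the arms was not tested.

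The combined list also marks regions as depleted of H3K9me1, and 7 of its 49 such regions lay in the stretches, 4 on 2L and 1 each on 3L, X and 3R. They measured 1287 to 1703 bp. Each overlapped an enriched domain of a replicate list, 4 of replicate 2 alone, 1 of replicate 1 alone and 2 of both, and none overlapped a depleted region of a replicate list. Replicate 1 marked 2 depleted regions in the stretches and replicate 2 none.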

How the results depend on the processing

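Of 236 alternative values for 28 results, 161 kept their direction and stayed within 1 SD of the replicate lists or within the interval of the share, 53 moved farther and 22 changed sign. For the 32 values that leave out a replicate, a move within the SD is fixed by having 2 replicates, so only their sign is informative, and removing domains can only lower a coverage. No result here has a test. Proximal minus rest and outer minus inner kept their sign on each arm in each alternative, as means of the replicates. With domains under 10 kb outer minus inner on 3R was 0.291 points in replicate 1 and -9.30 in replicate 2. With 3 Mb the mean of proximal minus rest on 3R was 1.11 points, beside an SD of 6.42 over the replicates at 2 Mb. The value of each replicate with 3 Mb was not computed, so its sign there is not known.

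Coverage of the proximal 2 Mb over leaving out a replicate ran from 11.5% to 17.8% on 2L, 5.31% to 8.87% on 3L, 7.33% to 25.8% on X and 34.6% to 39.6% on 3R. On 2L and 3R it was 19.7% and 47.9% in the combined list, 9.32% and 30.7% with domains of at least 2000 bp, and 6.70% and 26.9% at or above the median score. With domains under 10 kb alone it was 28.7% on 3R. With 1 Mb it was 5.57% on 2L, 0.669% on 3L and 42.0% on 3R, and with 3 Mb 19.4%, 15.5% and 30.6%.

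Proximal minus rest over leaving out a replicate ran from -18.2 to -7.84 points on 2L, -31.2 to -21.4 on 3L, -22.0 to -15.8 on X and 3.52 to 12.6 on 3R, where replicate 1 gives the lower value. On 3L and X it was -36.6 and -24.8 in the combined list and -18.7 and -13.4 with domains under 10 kb. On 3L it was -18.9 at or above the median score. With 1 Mb it was -21.9 on 2L, and with 3 Mb -17.9 on 3L, -12.1 on X and 1.11 on 3R.

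Outer minus inner ran from 16.6 to 19.6 points on 2L, 10.6 to 15.1 on 3L, 3.26 to 9.09 on X and -10.1 to -9.35 on 3R over leaving out a replicate. It was 26.1 on 2L and 17.3 on 3L in the combined list, 12.2 on 2L from 2000 bp, -4.51 on 3R with domains under 10 kb, and 8.83 on 2L, 8.91 on 3L and -8.87 on 3R at or above the median score. Spearman's rho with distance ran from 0.46 to 0.65 on 2L, 0.54 to 0.72 on 3L and -0.40 to -0.25 on 3R. On X it ran from -0.098 to 0.093 and changed sign from its mean of -0.0023 with domains under 10 kb (0.0034), bins of 50 kb (0.033) and bins of 200 kb (0.0089).

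The share of members found in both replicates was 19.1% on 2L, 24.2% on 3L and 32.7% on 3R at or above the median score. That limit also thinned the replicate lists. With 1 Mb the share was 8.33% on 2L and 0% of 2 members on 3L. With at least 50% of the member covered it was 20.6% on 2L, 32.2% on 3L, 10.0% on X and 33.9% on 3R. The shares of the other domains under these settings were not computed, so these values cannot be set against the rest of the arm. The score difference, members minus rest, was -0.071 on 2L and -0.054 on X in replicate 1. On 3L it was 0.43 with 1 Mb, from 2 members, and changed sign with 3 Mb (-0.0019) and in replicate 2 (-0.042). On 3R it changed sign in replicate 2 (0.0096), from 2000 bp (0.045), after merging (0.0052) and with no length limit (0.0011).

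The length difference was the least stable. On 2L, 3L, X and 3R it was -287.5, -628, -650 and 68.5 bp from 2000 bp, -396.5, -666.5, -539.5 and 111 bp at or above the median score, and -334, -36.5, 54 and -6 bp after merging within 1000 bp. On 2L, 3L and X it was -469, -853.5 and -267 bp with 1 Mb, -302, -15 and -320 bp in replicate 1, and -286.5, -94 and -451 bp with no length limit. On 3L, X and 3R it was -120.5, -280.5 and -149 bp with 3 Mb, and on 3L and 3R -267 and -11.5 bp in replicate 2. The sign on 3L was thus reversed in 8 of its 9 alternatives. The causes of these changes were not tested. No paired analysis was possible because no result here comes from a test and no list of input regions was used; proximal minus rest and outer minus inner were taken within each replicate list.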
